A study of Caenorhabditis elegans with 8 samples.

Results

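Cuticle collagens are the main proteins of the nematode exoskeleton. In Caenorhabditis elegans they are short secreted proteins of a large gene family, they are made by the epidermis (hypodermis) under the old cuticle, they join into triple helices through glycine-rich repeats, and they are cross-linked outside the cell. A new cuticle is built at each molt, and the last molt, at the end of the fourth larval stage (L4), gives the adult cuticle. Most members of the family have no mutant name and carry only a number (col-1, col-2 and so on), and col-19 among them is a textbook marker of the adult epidermis.

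The set described here holds 27 of the 158 numbered collagens, out of 20505 coding sequences (CDS) measured. Its members were chosen by their measured values: a numbered collagen entered if its mean over the young-adult libraries was at least 1 RPKM and higher than its mean over L4 libraries 5 to 7. RPKM is a read number divided by the feature length and by the total reads of that library. It allows for feature length and depth, but it remains a share of the reads of its library, so it depends on what else that library holds. Because the stage difference chose the members, their levels in young adults and in L4 libraries 5 to 7 are given as a description, with no test. Of the other numbered collagens, 108 had an L4 mean of at least 1 RPKM that was at least as high as the young-adult mean and are called the collagens high in L4, and 23 belonged to neither set.

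Fragments of mRNA that lay inside translating ribosomes, where nuclease cannot reach them, were sequenced. The source was whole N2 worms, the wild-type strain, hatched from prepared eggs and fed NA22 bacteria. The 4 young-adult libraries crossed monosome isolation (on a sucrose gradient, or through a gel filtration column) with library preparation (a commercial kit for ribosome profiling, or the protocol of the submitters, here called in-house). The 4 L4 libraries differed in the stretch of gel from which fragments were cut, which was 25 to 30, 28 to 30, 28 to 35 or 26 to 34 nt long in the labels, so every condition of either stage was sequenced as 1 library. Which L4 column of the table (5 to 8) holds which stretch is not labelled, and L4 libraries are therefore named by column number. The titles of the young-adult libraries share a number whose meaning is not explained, and nothing shows that any libraries came from separate cultures, so every SD and p-value below measures only the spread between these libraries, which may be technical, and stage cannot be told apart from experiment.

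The libraries held between 18018744 and 38132794 reads in young adults, 26078844, 21814060 and 4999364 in L4 libraries 5, 6 and 7, and 3684924 in L4 library 8. Library 8, labelled L4, stood apart from the other L4 libraries. The summed level of 6 yolk protein genes (vit-1 to vit-6) was 17410 to 18200.0 RPKM in young adults, 40.5 to 47.6 in L4 libraries 5 to 7 and 16984 in library 8, and that of 6 eggshell genes was 3566 to 3771, 87.7 to 101.5 and 4298. The summed level of 5 epidermal genes (dpy-7, rol-6, sqt-1, sqt-3 and elt-3) was 32.6 to 57.3 RPKM in young adults, 7289 to 8465 in L4 libraries 5 to 7 and 61.2 in library 8. Of these 5, 4 are cuticle collagens, and the transcription factor elt-3 alone was higher in the mean of young adults, at 22.3 ± 6.69 RPKM against 16.3 ± 1.21 in L4 libraries 5 to 7. The sum of 3 muscle genes was 458 to 609 RPKM in young adults, 1303 to 1320 in L4 libraries 5 to 7 and 715 in library 8, that of 3 neuronal genes 130 to 190, 248 to 279 and 207, and that of 4 sperm genes 126 to 172, 119 to 153 and 79.6. Only the sperm list had a gene at 0 in any library. The part of these sums in the stage levels below was not tested. The group labels were kept, and library 8 is given separately throughout. In whole worms, a smaller share of epidermal tissue and fewer fragments per epidermal cell cannot be told apart.

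Most members were read at high levels in the young adult, but not all. Their mean over the 4 young-adult libraries ran from 22.8 to 5774 RPKM with a median of 1419.6, and 18 of the 27 exceeded 1000 RPKM. Over L4 libraries 5 to 7 their mean ran from 0.128 to 774 RPKM with a median of 110.1. Of the 27 members, 6 ranked among the 100 highest CDS in every young-adult library, and 0 did so in any of L4 libraries 5 to 7. The best rank of a member in the young-adult libraries had a median of 115 and was 3580 for col-96. Values below are given in the order in-house gradient, in-house column, kit gradient and kit column for young adults, then L4 libraries 5, 6 and 7, then L4 library 8.

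The highest level belonged to col-140, which had 5111, 6714, 4936 and 6333 RPKM in young adults, 105, 90.0 and 85.3 in L4 libraries 5 to 7, and 5519 in library 8. It ranked between 4 and 23 among all CDS in the young-adult libraries and between 1475 and 1726 in L4 libraries 5 to 7. Next came col-20, with 5090.4, 6349, 3838 and 4597 RPKM, against 142, 134 and 184 in L4, and 6474 in library 8, the highest value of any member in any library but the in-house column value of col-140. The level of col-119 was 4089, 6228, 3467 and 4965 RPKM in young adults, 31.9, 26.7 and 24.1 in L4 libraries 5 to 7, and 4521 in library 8. For each of these genes every young-adult library lay far above L4 libraries 5 to 7, with no overlap, and within the young adults the in-house column library was the highest and the kit gradient library the lowest. The means were 5774 ± 882 against 93.6 ± 10.5 RPKM for col-140, 4968 ± 1055 against 153 ± 26.9 for col-20 and 4687 ± 1197 against 27.6 ± 3.96 for col-119 (SD, n = 4 and n = 3), which is 61.7-fold, 32.4-fold and 170.1-fold.

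The next 3 members were col-181, col-122 and col-124. The level of col-181 was 4253, 5010.2, 3787 and 4463 RPKM in young adults, 215, 189 and 226 in L4 libraries 5 to 7, and 4177 in library 8. That of col-122 was 3537, 5488, 2971 and 4685 RPKM, then 239, 231 and 209, then 3541. That of col-124 was 2911, 4892, 3329 and 4734 RPKM, then 116, 116 and 98.9, then 3611. The groups did not overlap for any of them, and library 8 lay inside the young-adult range each time. Young adults exceeded L4 libraries 5 to 7 by 20.9-fold for col-181 (4378 ± 507 against 210.0 ± 19.3 RPKM), 18.4-fold for col-122 (4170.2 ± 1131 against 226 ± 15.2) and 36.0-fold for col-124 (3967 ± 994 against 110.1 ± 9.71).

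The adult marker col-19 ranked seventh among the members by young-adult level. It had 2490.1, 3100.3, 2625 and 3212 RPKM in young adults, 54.1, 44.4 and 49.7 in L4 libraries 5 to 7, and 2549 in library 8. Both column libraries were above both gradient libraries, and the stages did not overlap, with means of 2857 ± 353 and 49.4 ± 4.87 RPKM and a ratio of 57.8. The 3 members closest below it in young-adult level differed widely in L4. The level of col-8 was 2497, 3662, 2054 and 2799 RPKM in young adults and only 8.13, 7.42 and 6.61 in L4 libraries 5 to 7, with 2249 in library 8. That of col-80 was 2360.3, 3453, 2143 and 2809 RPKM, then 158, 165 and 215, then 3201, and that of col-106 was 2036, 2924, 2011 and 2560.1, then 86.2, 66.9 and 102, then 1718. So members read at 2383 ± 441 (col-106) to 2753 ± 679 RPKM (col-8) in young adults ran from 7.39 ± 0.760 (col-8) to 179 ± 30.9 RPKM (col-80) in L4 libraries 5 to 7, and their stage ratios were 373 for col-8, 28.0 for col-106 and 15.0 for col-80.

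**Figure D1:**
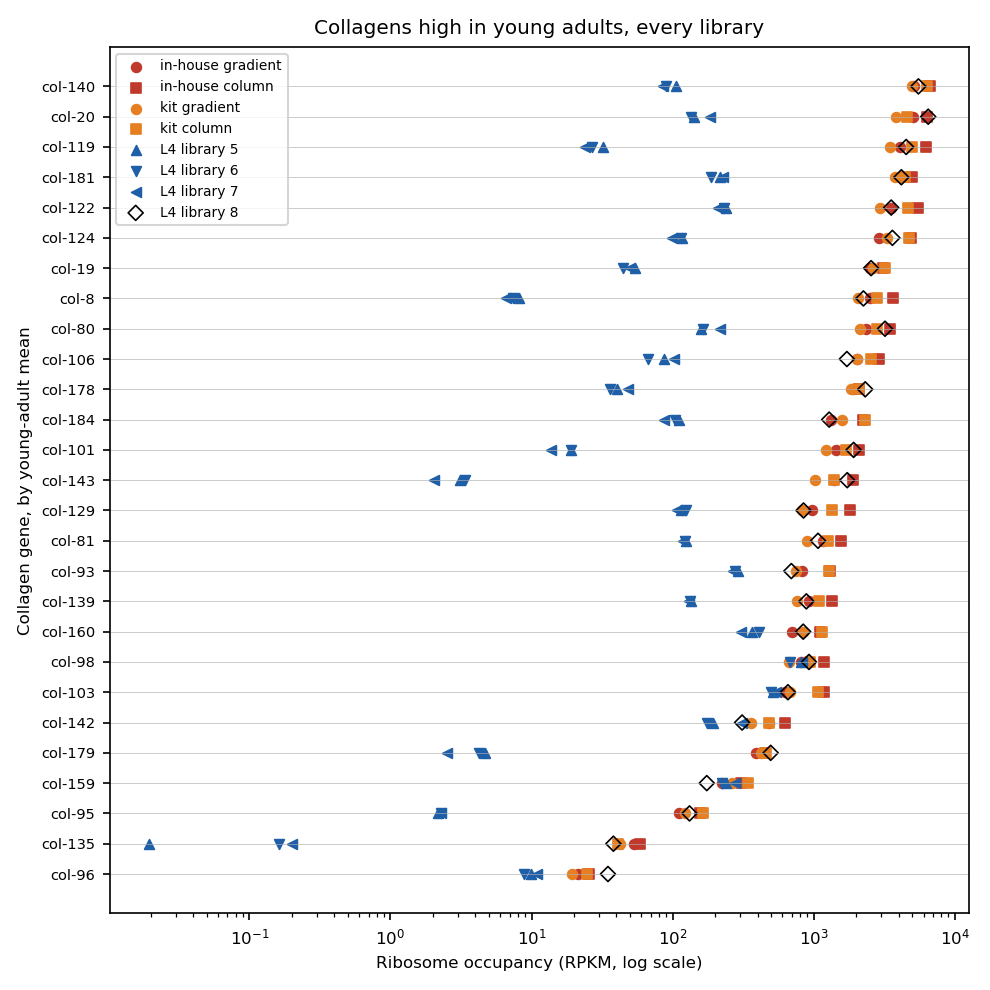
RPKM on a log axis (horizontal) of each of the 27 members (1 line each, ordered by young-adult mean) in each of the 8 libraries, with 1 marker per library: red in-house and orange kit young-adult libraries (circle gradient, square column), blue L4 libraries 5 to 7 and an open black diamond for library 8. The young-adult points and library 8 lie together for most members, between 22.8 and 5774 RPKM in the young-adult mean, while L4 libraries 5 to 7 spread from 0.128 to 774 RPKM in their mean without following that order.

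The stage ratio ran from 1.15 to 500.1 over the members. It exceeded 100 for 5 members (col-143, col-135, col-8, col-119 and col-179), lay between 10 and 100 for 14 and below 10 for 8. The largest was 500.1 for col-143, which had 1388, 1888, 1016 and 1387 RPKM in young adults, 3.10, 3.39 and 2.02 in L4 libraries 5 to 7 (80, 73 and 10 reads), and 1728 in library 8. Its means were 1419.6 ± 358 and 2.84 ± 0.719 RPKM, so the median-level member of the young adult was among the least read in L4. The lowest L4 level was that of col-135, with 0.0193, 0.162 and 0.202 RPKM in L4 libraries 5 to 7, against 52.9, 59.1, 42.5 and 41.1 in young adults and 38.0 in library 8. These L4 values stand for 1, 7 and 2 reads, 10 in all against 11078 in the young adults. Its ratio of pooled reads per library size was 513, with an exact 95% interval of 279.0 to 1071 that covers counting error only, and the ratio of its mean RPKM (48.9 ± 8.59 over 0.128 ± 0.0959) was 383.

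Besides col-8, col-143 and col-135, another 3 members were below 10 RPKM in the mean of L4 libraries 5 to 7. The level of col-179 was 388, 455, 423 and 459 RPKM in young adults, 4.66, 4.22 and 2.50 in L4 libraries 5 to 7 (107, 81 and 11 reads), and 495 in library 8. That of col-95 was 111, 155, 122 and 163 RPKM, then 2.16, 2.30 and 2.30 (54, 48 and 11 reads), then 132. That of col-96, the member with the lowest young-adult level, was 21.5, 25.7, 19.3 and 24.8 RPKM, then 9.84, 8.87 and 10.9, then 34.8. The ratio was 114 for col-179 (431 ± 32.7 over 3.79 ± 1.14 RPKM) and 61.3 for col-95 (138 ± 25.1 over 2.25 ± 0.0782), and 2.31 for col-96 (22.8 ± 2.95 over 9.88 ± 1.03).

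Another 5 members had ratios between 10 and 100. The level of col-178 was 1911, 2106, 1849 and 2087 RPKM in young adults, 40.4, 35.9 and 48.6 in L4 libraries 5 to 7, and 2317 in library 8, and that of col-101 was 1429, 2108, 1212 and 1698, then 19.1, 18.9 and 13.8, then 1916. That of col-184 was 1330.0, 2217, 1596 and 2325 RPKM, then 111, 104 and 86.8, then 1287. For col-184 both column libraries were above both gradient libraries, while col-178 varied least of all members among the young adults, with the highest value 1.14 times the lowest. The level of col-129 was 971, 1799, 831 and 1345 RPKM in young adults, then 114, 124 and 107, then 846, and that of col-81 was 1161, 1572, 890.3 and 1265, then 125, 123 and 118, then 1073. No young-adult value overlapped the L4 values of libraries 5 to 7 for any of these 5, and the ratios were 93.3 for col-101 (1612 ± 386 over 17.3 ± 2.99 RPKM), 47.7 for col-178 (1988 ± 128 over 41.7 ± 6.44), 18.6 for col-184 (1867 ± 481 over 101 ± 12.5), 10.8 for col-129 (1236 ± 433 over 115 ± 8.56) and 10.0 for col-81 (1222 ± 282 over 122 ± 3.63).

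**Figure D2:**
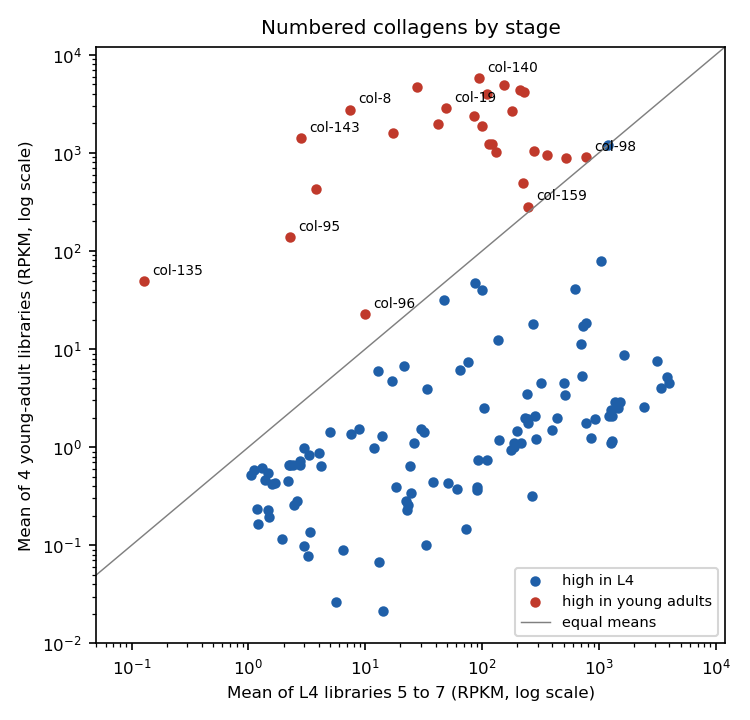
Mean RPKM of L4 libraries 5 to 7 (horizontal, log axis) against mean RPKM of the 4 young-adult libraries (vertical, log axis) for the numbered collagens, 1 point per gene, with members in red, collagens high in L4 in blue and the line of equal means in grey. Members lie above the line because the rule put them there, from col-159 at 1.15-fold to col-143 at 500.1-fold.

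The remaining members were read in both stages. The level of col-139 was 919, 1349.9, 760.4 and 1095 RPKM in young adults, 134, 133 and 131 in L4 libraries 5 to 7, and 887 in library 8, a ratio of 7.77. That of col-93 was 825, 1313, 752 and 1288 RPKM, then 289.9, 276 and 266, then 694, a ratio of 3.77. That of col-160 was 701, 1115, 833 and 1142 RPKM, then 365, 412 and 305, then 842, a ratio of 2.63. In these members the lowest young-adult library still exceeded the highest of L4 libraries 5 to 7. The level of col-142 was 479, 626, 361 and 485 RPKM in young adults, 193, 177 and 309 in L4, and 311 in library 8 (ratio 2.16), and that of col-103 was 629, 1189, 674 and 1081, then 513, 498 and 544, then 656 (ratio 1.72). The stages did not overlap here either. For col-142 and col-103, as for col-93 and col-160, the gap between the nearest libraries of the stages was smaller than the range of the young adults.

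Only 2 members had stages that overlapped, and they were also the members nearest to the limit of equal means. The level of col-98 was 807, 1175, 670.4 and 939 RPKM in young adults (898 ± 215), 811, 682 and 827 in L4 libraries 5 to 7 (774 ± 79.5), and 925 in library 8. That of col-159 was 223, 303, 263 and 343 RPKM (283 ± 51.9), then 239, 223 and 279 (247 ± 28.6), then 175, lower than every other library. Their ratios, 1.16 and 1.15, rested on differences smaller than the spread between young-adult libraries, and col-103, at 1.72, was the next inside the limit. Just outside it lay col-42, at 1239, 1581, 862 and 1146 RPKM in young adults (1207 ± 297) and 1184, 1101 and 1341 in L4 (1209 ± 122), a ratio of 0.999. Then came col-118 at 0.681 and col-92 at 0.545. With medians in place of means col-42 would have entered as a 28th member, and the other 27 would have been the same. Among collagens with a higher mean in young adults none lay close to the limit of 1 RPKM, since the lowest members were col-96, col-135 and col-95, and the nearest collagens below it, col-151, col-52 and col-87, had young-adult means of 0.119, 0.0806 and 0.0250 RPKM.

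In all, 25 of the 27 members had every young-adult library above every one of L4 libraries 5 to 7. The same held for 22.7% of the 13592 CDS with at least 1 RPKM in at least 2 libraries, and since the rule used this contrast nothing is read from the difference. Not every collagen known from adults was a member. The collagen col-7, described in earlier work as adult-specific, had 0.849, 2.24, 0.402 and 0.454 RPKM in young adults (0.987 ± 0.861), 2.47, 2.25 and 4.29 in L4 libraries 5 to 7 (3.00 ± 1.12) and 4.16 in library 8, so it was below the limit of 1 RPKM and lower in young adults than in L4.

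Together the members took up 4.46%, 6.29%, 4.06% and 5.44% of the reads of the young-adult libraries, 0.403%, 0.381% and 0.416% of those of L4 libraries 5 to 7, and 4.84% of those of library 8 (Wilson 95% interval 4.82 to 4.86%). In every other library the Wilson 95% interval reached at most 0.0105 percentage points to either side. Intervals of this kind cover counting error only, since reads without molecular identifiers are not independent molecules. The mean share was 5.06 ± 1.00% in young adults (SD, n = 4) and 0.400 ± 0.0178% in L4 libraries 5 to 7 (n = 3). The collagens high in L4 had the opposite distribution, as their own rule requires, with 0.130 to 0.217% of reads in young adults, 3.90 to 4.37% in L4 libraries 5 to 7 and 0.24% in library 8. All numbered collagens together, a sum for which neither rule fixes a direction, took up 4.19 to 6.50% in young adults and 4.28 to 4.79% in L4 libraries 5 to 7, so that the ranges of the stages overlapped, and 5.09% in library 8. Of the numbered collagen reads, the members held 96.3 to 97.0% in young adults, 8.63 to 8.90% in L4 libraries 5 to 7 and 95.2% in library 8.

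**Figure D3:**
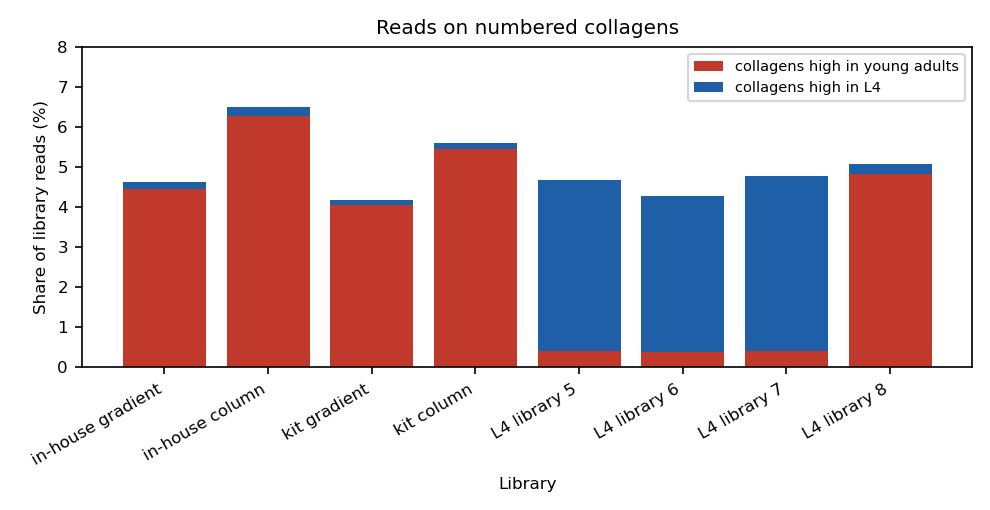
Percent of all reads (vertical, from 0) taken up by the 27 members (lower part of each bar) and by the 108 collagens high in L4 (stacked on top) in each of the 8 libraries. The members make up 4.06 to 6.29% in young adults, 0.381 to 0.416% in L4 libraries 5 to 7 and 4.84% in library 8, while the sum of all numbered collagens stays between 4.19 and 6.50% in all 8 libraries.

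The member reads were spread over many genes rather than taken by 1 or 2. The 5 most read members of a library held 42.9 to 46.0% of its member reads in young adults, 54.7 to 55.0% in L4 libraries 5 to 7 and 46.3% in library 8. The order of the members by RPKM was nearly the same in all young-adult libraries, with Spearman's rho across the 27 genes between 0.978 and 0.991, and nearly the same among L4 libraries 5 to 7, between 0.980 and 0.998. Between young adults and L4 libraries 5 to 7 rho was 0.00244 to 0.0794, while Pearson's r on log2 values was 0.385 to 0.483. These correlations are across genes, which are not independent replicates, and the libraries of a stage share an experiment. The feature lengths of the members ran from 842 to 1983 bases with a median of 943, and those of the collagens high in L4 from 599 to 2151 with a median of 926, so the sets covered similar lengths. The longest member was col-135, at 1983.

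The values of L4 library 8 were not used by the rule, but those of the libraries it is set against were, so its place among them is a description. It exceeded all of L4 libraries 5 to 7 for 26 of the 27 members, against 32.6% of all CDS, and the exception was col-159. It lay within the young-adult range for 17 members, against 39.1% of all CDS. Library 8 was above that range for 4 members (col-20, col-178, col-179 and col-96), against 4957 of the 13592 CDS. It was below the range for 6 members (col-106, col-184, col-93, col-142, col-159 and col-135), against 3318 of the 13592 CDS. Relative to the young-adult mean its levels ran from 0.617-fold to 1.52-fold with a median of 0.892-fold, and 9 members ranked among its 100 highest CDS. Spearman's rho across the members was 0.960 to 0.984 between library 8 and the young-adult libraries and 0.00733 to 0.0726 between library 8 and L4 libraries 5 to 7. The collagens high in L4 had a median of 3.98 times the young-adult mean in library 8. Of the 108, 89 were below all of L4 libraries 5 to 7, against 6949 of the 13592 CDS. Above the young-adult range lay 91, against 4957 of the 13592 CDS, and within it 15. The yolk, eggshell, epidermal, muscle and neuronal sums given above were all nearer to the young adults than to L4 libraries 5 to 7 in library 8. The sperm sum was lower in library 8, at 79.6 RPKM, than in any other library. The part of these sums in the levels of library 8 was not tested.

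Several members are neighbours on their chromosomes in the RefSeq annotation, which was used only for gene order. The pair col-178 and col-179 has no gene between, equal feature lengths of 880 bases, and ratios of 47.7 and 114, but col-178 was read at 1988 ± 128 RPKM in young adults and col-179 at 431 ± 32.7. The pair col-95 and col-96 is also adjacent, with ratios of 61.3 and 2.31, and so is the pair col-159 and col-160, with 1.15 and 2.63. With 1 gene between, col-142 and col-143 differed most, at 2.16 and 500.1. Neighbours could thus be far apart in their stage ratio. Some members sit beside collagens of the opposite pattern: col-20 lies between col-17, at 2.39 RPKM in the young-adult mean and 1259 in that of L4 libraries 5 to 7, and col-73, at 5.16 and 3858. The gene next to col-80 is col-39, at 17.1 and 728 RPKM, and 1 gene further is col-79, at 0.315 and 266. The member col-93 lies between col-92 (47.7 ± 11.9 and 87.6 ± 5.29 RPKM) and col-94 (39.7 ± 14.2 and 100.1 ± 25.6), and all 3 have a feature length of 943 bases. How reads that fit several near-identical genes were counted is not stated in the sources used, so single values of such neighbours of equal length are uncertain. The choice of neighbours described was made with their values known.

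The young-adult libraries were made to compare ways of isolating monosomes, and the rule used their mean, not the differences among them. For col-98 and col-159 the gradient mean, at 739 and 243 RPKM, was below the mean of L4 libraries 5 to 7, at 774 and 247. Both met the rule only through their column libraries, so their isolation calls are not independent of it. Nearly every member took a larger share of the reads in the column libraries. Tested with limma on log2(RPKM + 1) over 11569 CDS, with library preparation in the model and a Benjamini-Hochberg threshold of 0.05, 26 of the 27 members were higher on the column and 0 were lower, where 19.8% of all CDS tested were called higher and 19.2% lower. At an unadjusted p under 0.05, and with voom on the recovered reads, 0 members were lower too. On the log2 scale the column minus gradient difference had a median of 0.47 over the members and 0.02 over all CDS, and among the 26 called it ran from 0.16 to 0.80 (SE 0.03 to 0.06, adjusted p 0.00355 to 0.0263). Of the 4 young-adult libraries the in-house column library was the highest for 21 members and the kit column library for the other 6. In 26 members the column exceeded the gradient both with the in-house and with the kit preparation, as in 5495 of the 13592 CDS.

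The largest difference was that of col-103, with a log2 difference of 0.80 (SE 0.06), from 651 RPKM in the mean of the gradient libraries to 1135 in that of the column libraries. The in-house pair gave 0.92 and the kit pair 0.68. Close behind was col-129, at 0.79 (SE 0.05), from 901 to 1572 RPKM. Then followed col-93 at 0.72 (SE 0.04, from 789 to 1300.5 RPKM), col-122 at 0.65 (SE 0.03, from 3254 to 5086) and col-184 at 0.64 (SE 0.05, from 1463 to 2271). The stage ratios of these 5 ran from 1.72 to 18.6, so members read in both stages and members read mainly in young adults were both among them. The adjusted p was 0.00355 for each of the 5, the smallest that any of the 11569 CDS had in this comparison.

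At the other end stood col-135, the only member not called, at 0.06 (SE 0.06, adjusted p 0.524), with 0.16 in the in-house pair and -0.05 in the kit pair. The neighbours col-178 and col-179 followed, at 0.16 (adjusted p 0.0158) and 0.17 (adjusted p 0.0263), and col-19 was at 0.30 (SE 0.03, adjusted p 0.00363). The member with the highest young-adult level, col-140, rose from 5024 to 6523 RPKM, a log2 difference of 0.38 (SE 0.03).

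These calls came from 4 libraries and 1 residual degree of freedom per CDS, with a spread shared across genes by limma. When L4 libraries 5 to 7 were added to the fit, 0 of the 27 members were called, and 0 of all 13494 CDS tested. In that fit 17 members had an unadjusted p under 0.05. It estimates the spread from more libraries, but these include L4 libraries 5 to 7, of another stage and cut from different stretches of gel. Voom, a limma method for read counts, called 26 members from the recovered reads of the 4 young-adult libraries. Over all 11569 CDS it called 2969 higher and 2462 lower. With isolation as the only term of the model 0 members were called, and 0 of all 11569 CDS, with 16 members at an unadjusted p under 0.05. The collagens high in L4 leaned the same way where they could be tested: 21 of 59 were higher on the column and 2 lower, with a median of 0.26, and of the 11 with a young-adult mean of at least 10 RPKM 9 were higher and 2 lower, with a median of 0.38.

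**Figure D4:**
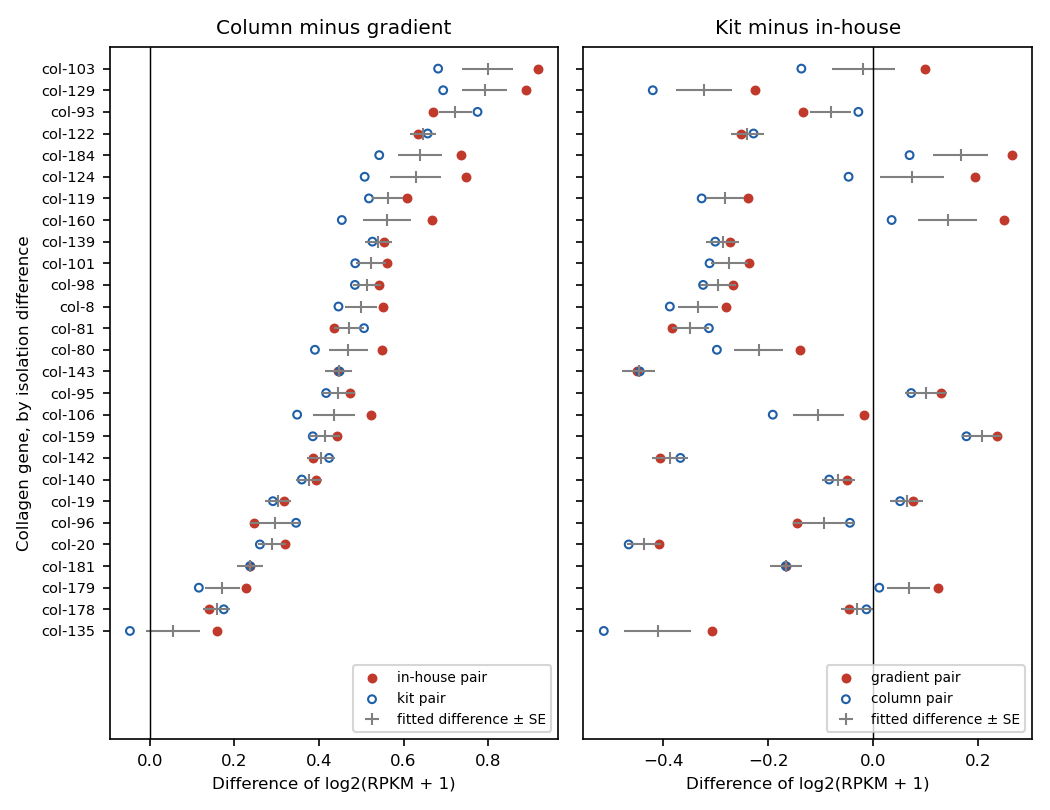
Log2 differences of each member between column and gradient and between kit and in-house preparation in the 4 young-adult libraries, with the fitted value, its standard error and the values of the matched pairs. All 27 isolation estimates lie above 0, from 0.06 to 0.80, and the preparation estimates run from -0.45 to 0.21.

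The difference between kit and in-house preparation was smaller and mostly in the other direction. In the same fit 14 members were lower in the kit libraries, 1 was higher and 12 were not called, where 10.0% of all CDS were called lower and 25.9% higher. The median log2 difference, kit minus in-house, was -0.17 over the members and 0.10 over all CDS. The fall was largest for col-143, at -0.45 (SE 0.03, adjusted p 0.00109), from 1638 RPKM in the mean of the in-house libraries to 1201 in that of the kit libraries, and its pairs gave -0.45 on the gradient and -0.44 on the column. It was followed by col-20 at -0.44 (SE 0.03, from 5720 to 4217 RPKM), col-135 at -0.41 (SE 0.06, from 56.0 to 41.8), col-142 at -0.39 (SE 0.03, from 553 to 423) and col-81 at -0.35 (SE 0.03, from 1367 to 1078). The only member called higher was col-159, at 0.21 (SE 0.04, adjusted p 0.0116), from 263 to 303 RPKM, with 0.23 and 0.18 in its pairs.

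The call for col-159 was lost with median centring of the libraries, at 0.09 (adjusted p 0.121), where 0 members were higher and 19 lower, and the members' median was -0.28. That scaling also turned the split of calls over all CDS, of which 72.1% were higher in the kit as fitted, 45.3% with median centring and 48.9% with quantile normalization. With L4 libraries 5 to 7 in the fit 0 members were called in either direction, where 3 of all 13494 CDS were higher and 1 was lower. At an unadjusted p under 0.05, 6 members were lower and 0 higher in that fit. The differences of col-19 and col-140 were 0.06 (SE 0.03, adjusted p 0.167) and -0.07 (SE 0.03, adjusted p 0.151). The collagens high in L4 had a median of -0.16, with 3 higher and 10 lower of 59.

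Around the members, the other genes of cuticle making were mostly read at higher levels in L4 libraries 5 to 7 than in young adults. For these lists, which the rule did not use, the stages were tested with limma over 13592 CDS in all 8 libraries as labelled, where 11.1% of CDS were called higher in young adults and 27.6% lower, and again without library 8 over 13494 CDS, where 22.7% were higher and 46.6% lower. Of 20 collagens with mutant names, 0 were higher and 18 lower in young adults, and without library 8 it was 1 higher, dpy-14, and 18 lower. At an unadjusted p under 0.05 there were also 18 of the 20 with all libraries. The most read was dpy-4, with 3.77, 5.85, 3.15 and 4.20 RPKM in young adults, 4151, 4222 and 4673 in L4 libraries 5 to 7, and 24.5 in library 8. Then came sqt-3 (18.3 ± 7.31 RPKM in young adults and 4277 ± 356 in L4 libraries 5 to 7), dpy-5 (4.42 ± 1.31 and 4143 ± 528) and dpy-13 (3.53 ± 0.758 and 3536 ± 256). These levels in L4 are of the size that col-140, col-20 and col-119 had in young adults. The log2 difference of dpy-4, young adult minus L4, was -7.87 (SE 1.57, adjusted p 0.0159) with all libraries and -9.72 (SE 0.17, adjusted p 2.67e-11) without library 8.

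The enzymes that modify and fold collagens were likewise mostly lower in young adults, but by less. Of 19 tested, 10 were lower and 1 higher with all libraries (median log2 difference -1.05), and 16 lower and 2 higher without library 8 (-1.37). The subunit of prolyl 4-hydroxylase pdi-2, a protein disulfide isomerase, was read at 697 ± 102 RPKM in young adults, 4761 ± 387 in L4 libraries 5 to 7 and 857 in library 8. The ER chaperones crt-1 (calreticulin) and hsp-3 (a BiP) were at 1070 ± 121 and 513 ± 58.9 RPKM in young adults against 3853 ± 1045 and 1426 ± 75.3, and both were called lower, at -1.47 (adjusted p 0.0209) and -1.23 (adjusted p 0.0159). The disulfide isomerase pdi-1 was at 608 ± 102 and 833 ± 108 RPKM, and was not called with all libraries (adjusted p 0.155). Without library 8 it was called lower, at -0.46 (adjusted p 0.0310). The gene higher in young adults in both fits, named after its values were seen, was skpo-1, which encodes a peroxidase, at 141 ± 17.4 RPKM against 2.15, 2.46 and 2.00 in L4 libraries 5 to 7, and 85.4 in library 8. Its log2 difference was 4.28 (SE 1.01, adjusted p 0.0209) with all libraries and 5.47 (SE 0.14) without library 8. The second gene higher without library 8 was phy-3, a prolyl 4-hydroxylase, at 5.55 ± 1.31 against 2.28 ± 0.585 RPKM (adjusted p 0.0546 with all libraries).

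Of 14 tested regulators of the larval epidermis and its passage to the adult, 7 were lower in young adults and 1 higher with all libraries (median -0.98), and 10 lower and 1 higher without library 8 (-1.33). The one higher was lin-41, an RNA-binding protein of the heterochronic pathway, at 83.3, 76.4, 83.1 and 75.0 RPKM in young adults, 3.39, 3.45 and 3.80 in L4 libraries 5 to 7, and 65.2 in library 8. Its log2 difference was 3.18 (SE 0.82, adjusted p 0.0245), and it is also known for its role in oocytes. The period-like gene lin-42, which cycles with the molts, went the other way, at 1.18 ± 0.293 RPKM against 70.4 ± 4.94 and 0.951 in library 8. The GATA factor elt-3 (22.3 ± 6.69 against 16.3 ± 1.21 RPKM) and lin-28 (12.5 ± 3.04 against 14.8 ± 2.24) were not called in either fit. The zinc finger factor lin-29, known to be needed for col-19 expression in the adult and named here after its values were seen, was at 3.34 ± 1.29 RPKM against 17.2 ± 2.47, with a log2 difference of -1.53 (adjusted p 0.0507) with all libraries and -2.11 (adjusted p 1.62e-05) without library 8.

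Over the 3 lists together 2 genes were higher and 35 lower with all libraries, and these counts rested on each library in turn. They were 4 and 44 without library 8. With library 8 kept, they were 1 and 11 without the in-house gradient library, 0 and 1 without the in-house column library, 0 and 4 without the kit gradient library, 0 and 0 without the kit column library, 0 and 0 without L4 library 5, 0 and 0 without L4 library 6, and 0 and 7 without L4 library 7. With library 8 kept as labelled, the SE of the collagens with mutant names had a median of 1.56 on the log2 scale, against 0.15 without it.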

How the data were processed

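Fragments of 4 young-adult and 4 L4 libraries were counted by the authors per CDS and deposited as RPKM. The tools STAR 2.4, Bowtie2 2.2.4 and bcl2fastq 1.8.4 appear in the submitters' processing notes with no role, and no source used states the genome build. From the steps between RPKM values, whole reads, feature lengths and library totals were recovered (Python 3.11.15, numpy 2.4.6, pandas 2.3.3). Whole reads resulted for 19649 of 19649 CDS with any value (tolerance 0.0001), and 99.6 to 99.9% of the reads of a library lay in the table. Symbols came from the RefSeq table, in which 20051 sequence names matched and 454 did not.

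Differences were fitted in R 4.3.3 with limma 3.58.1 (lmFit, eBayes with an abundance trend, two-sided) on log2(RPKM + 1), which understates changes of low genes, for CDS with at least 1 RPKM in at least 2 libraries, and p-values were adjusted over all of them (Benjamini-Hochberg, 0.05). On simulated data the false calls of the isolation and preparation fits exceeded the nominal rate, and those of the stage fit did not. The stage simulation changed only 200 CDS, while the stage fit to all libraries as labelled called 1507 higher and 3757 lower. It therefore cannot show whether the stage fit kept its nominal rate in these data. The members, the lists of other genes and the tests were chosen with earlier results of these data known.

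Named members are the 10 highest in young adults, the 10 with the largest stage ratio, the 5 largest called rises and falls for isolation and for preparation, those nearest each limit, and col-19 and col-7, and of each list the 4 genes with the highest mean. The other members were added so that all 27 have values. Of 21 collagen-modifying genes listed, 20 were found and 19 tested, and of 15 regulators 14 were tested. Alternatives tried were no filter or a filter of 10 RPKM, a pseudocount of 0.1 or 5, quantile normalization, median centring, no abundance trend, voom on recovered reads, 1 term in place of 2, L4 libraries 5 to 7 in the fit, medians in the rule, shares of summed RPKM, and leaving out each library. Protein and promoter sequences were not analysed here.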

Additional observations from a re-analysis of the deposited data

Results flagged for a closer look

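Groups of 4 libraries were searched for a library whose gap to its nearest neighbour took up most of the range of its group. Of 84 such groups examined, 31 had one, and all of those but 1 were L4 library 8. Chance gives about 1 in 20 for independent groups, which these are not, so the count is not set against that rate. None of the 27 members had such a library among the young adults, while 22 had L4 library 8 far above L4 libraries 5 to 7. Its levels were 5519 RPKM for col-140, 6474 for col-20, 4521 for col-119, 4177 for col-181, 3541 for col-122, 3611 for col-124, 2549 for col-19 and 2249 for col-8. They were 3201 RPKM for col-80, 1718 for col-106, 2317 for col-178, 1287 for col-184, 1916 for col-101 and 1728 for col-143. They were 846 RPKM for col-129, 1073 for col-81, 694 for col-93, 887 for col-139, 495 for col-179, 132 for col-95, 38.0 for col-135 and 34.8 for col-96. In the other 5 members (col-160, col-98, col-103, col-142 and col-159) the gap took up less of the range. The search was not run over all CDS, of which 32.6% had library 8 above L4 libraries 5 to 7 by any gap. Since the rule favoured low values in L4 libraries 5 to 7, nothing is read from the count of 22 members.

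The same library held the members' share of reads at 4.84% and their share of numbered collagen reads at 95.2%, far above L4 libraries 5 to 7. It stood far below those libraries for pdi-2 at 857 RPKM, dpy-4 at 24.5, sqt-3 at 26.1, dpy-13 at 16.8 and lin-42 at 0.951, and far above them for lin-41 at 65.2. L4 library 7 stood above the other L4 libraries for lin-28, at 17.4 RPKM.

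In 3 cases a method difference had opposite signs in its matched pairs, and the difference between the pairs was not tested. The kit minus in-house difference of col-103 differed by 0.24 on the log2 scale (0.235) between the gradient pair, where it was above 0, and the column pair, where it was below 0, and that of col-124 by 0.241 in the same way. The column minus gradient difference of col-135 differed by 0.205 between the in-house pair, above 0, and the kit pair, below 0.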

How the results depend on the processing

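The isolation difference of the members was called in 26 of 27 with either pseudocount, either filter, quantile normalization and voom, in 24 with median centring and in 23 without the abundance trend. The fits that called 26 members called 1895 to 2969 CDS higher and 2003 to 2462 lower, of 6197 to 19136 tested. Of 11569 CDS, 1701 were higher and 2703 lower with median centring, and 1609 higher and 1430 lower without the trend. It was called in 0 members with L4 libraries 5 to 7 in the fit and in 0 with isolation as the only term, and these fits called 0 of all CDS. With a young-adult library left out, the median log2 difference over the members was 0.446 to 0.522. Those fits hold L4 libraries 5 to 7, take their spread from these alone and assume that a lone library varies like the others. For preparation, where 1 member was higher and 14 lower, the count higher was 2 with the filter at 10 RPKM, 0 with median centring, 0 without the trend and 3 with voom, and the count lower was 8 without the trend. Over all CDS, 2396 were higher and 1093 lower with that filter (of 6197), and 1663 and 2012 with median centring (of 11569). There were 1994 and 632 without the trend and 3913 and 1485 with voom, of 11569 each. With a young-adult library left out, the median log2 difference over the members was -0.192 to -0.145. Both counts of members were 0 with L4 libraries 5 to 7 in the fit, where 3 of 13494 CDS were higher and 1 was lower. They were also 0 with preparation as the only term, where 5 of 11569 CDS were higher and 1 was lower. The cause was not tested. Signs turned for preparation with median centring in col-124 (-0.0429), col-179 (-0.0489), col-95 (-0.0152) and col-19 (-0.0525), with quantile normalization in col-140 (0.124) and col-95 (-0.00594), and with a library left out in col-124 (range -0.0472 to 0.193, below 0 without either gradient library) and col-103 (-0.137 to 0.0984, above 0 without either column library). For isolation the sign turned in col-135 (range -0.0469 to 0.158, below 0 without either in-house library). None of these had passed the threshold.

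Leaving out 1 library moved the stage counts of the other cuticle genes between 0 and 4 higher and between 0 and 44 lower, as given per library above. The share of summed RPKM gave the members 0.379% in L4 libraries 5 to 7, in place of 0.400% of reads, and 5.29% in young adults. No analysis that pairs young-adult with L4 libraries was possible because the replicate numbers were given in accession order and only name the libraries. Depth limits the L4 values of the least read members most, such as the 1, 7 and 2 reads of col-135, and library 7 and library 8 are the shallowest.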
